A study of Mus musculus with 18 samples.

Results

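Pvt1 is a long noncoding gene that lies beside the proto-oncogene Myc, and it was followed here across all 18 libraries of a study of germ cells from the testis of ICR mice. It is 1 locus of 13218 in the table, taken by its symbol, and it was chosen with its FPKM values in every library already known. Its levels are therefore given as a description, with no test. The libraries carry 6 labels: priSG-A from postnatal day 6, priSG-B from day 9, plpSC from day 14, pacSC from day 21, rST from day 35 and elST from day 56. Each label has 3 libraries of cells separated by STA-PUT sedimentation, which sorts cells mainly by size, and no treatment or mutation was applied. The labels do not spell the names out. In this field SG, SC and ST usually mean spermatogonia, spermatocytes and spermatids. No label says whether the 3 libraries of a type came from separate mice, so their spread may be technical.

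The name Pvt1 comes from plasmacytoma variant translocation, and in mice the region was first known as a site of chromosome breaks and retroviral insertions in tumours of blood cells. In human cancers PVT1 is often amplified together with MYC, and in human breast cancer cells the PVT1 promoter competes with MYC for shared enhancers. Pvt1 is also known as a target of p53, and in mouse cells a stress-induced Pvt1 RNA lowers Myc transcription. During spermatogenesis spermatogonia divide by mitosis, spermatocytes pass through meiosis, and round spermatids then elongate into sperm. Spermatids make transition proteins such as Tnp1, which replace histones while the nucleus condenses, and abundant RNA over the Tnp1 locus therefore marks them.

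Pvt1 (ENSMUSG00000097039.8) spans 340111 bases of the plus strand at chr15:62037986-62378096 on mm10. The protein-coding gene Myc lies at chr15:61985391-61990374 on the same strand, and 47611 bases separate its end from the start of Pvt1. Myc itself is not analysed here, since the table holds long noncoding loci. GENCODE M21 lists 10 Pvt1 transcripts of 501 to 3319 bases with 2 to 10 exons, and they cover 6996 exon bases in all. The table gives a single FPKM per library for the whole gene, so no transcript can be told from another. The exon below marked as shared belongs to 8 of the 10 transcripts and stands for the common part of the gene. The first exon of the transcript that starts farthest upstream is shown because it holds the start of the gene nearest to Myc. Both were read from the GENCODE M21 transcripts, and capitals mark a match to TGACGTCA, the palindrome known as the cAMP response element.
First exon, chr15:62037986-62038201, plus strand: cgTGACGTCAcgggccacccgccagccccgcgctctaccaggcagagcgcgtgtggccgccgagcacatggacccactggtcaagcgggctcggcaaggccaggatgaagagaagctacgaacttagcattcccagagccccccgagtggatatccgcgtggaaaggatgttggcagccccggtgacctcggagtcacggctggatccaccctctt
Shared exon, chr15:62242174-62242301, plus strand: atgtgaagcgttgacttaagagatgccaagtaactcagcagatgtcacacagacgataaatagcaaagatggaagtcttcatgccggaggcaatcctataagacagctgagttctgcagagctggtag

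The match begins at base 3 of the first exon. The element was searched for after the sequence had been read, and being a palindrome it reads alike on both strands. Over the first 216 bases of the transcript that starts farthest upstream, 33 of 12874 loci with a window of that length held it, or 0.256%. Among the loci that passed the filter on low values described below, 19 of 4001 held it, or 0.475%. The Myc-type E-box CACGTG, also a palindrome, was not in either printed exon, and 3.18% of the 12874 windows held it. A match is a string of letters and does not show a binding site.

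Some of the annotation overlaps Pvt1. The processed pseudogene H2afy3 (chr15:62218221-62219332, minus strand) shares 109 bases with the first exon of a Pvt1 transcript that starts inside the gene. The named kit does not mark strand, so reads on these bases could belong to either gene. The short plus-strand loci Gm27913, Gm27718 and Gm27957, of the class misc_RNA, share 173, 86 and 82 exon bases with Pvt1. None of these loci has a row in the table, and no source used here states how the authors' counting treated shared bases.

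The libraries were compared before Pvt1 was read by type. The steps of the FPKM values in single-exon loci give an inferred depth of 31.7 to 92.4 M (mega) fragments a library. A ribosomal RNA-derived locus, AY036118, stood at 7.25 to 36.2 FPKM in 6 libraries (priSG-B replicates 1 to 3, pacSC replicates 1 and 2, elST replicate 3) and at 1998 to 13911 FPKM in the other 12. The first are called low-rRNA and the others high-rRNA libraries here, and the inferred depth was 65.4 to 92.4 M fragments in the first and 31.7 to 56.7 M in the others. In 5 of the 6 types 1 library stood apart from the other pair, with the lowest correlation across loci below 0.8. These were priSG-A replicate 3, plpSC replicate 3, pacSC replicate 3, rST replicate 1 and elST replicate 1. Each of the 5 was closer to a library of another type (r of 0.80 to 0.96) than to any of its own (0.07 to 0.61): plpSC replicate 3 was closest to elST replicate 2, pacSC replicate 3 to rST replicate 3, and rST replicate 1 and elST replicate 1 to each other. Whether labels were exchanged was not tested, so each value below is that of the libraries labelled with a type. The elST pair that was left, replicates 2 and 3, also had an r below 0.8 (0.77), and its members were closest to plpSC replicate 3 and pacSC replicate 2. Of the 13 libraries that did not stand apart, 8 were closer to a library of another type than to any of their own. The closest profiles of all, by chi-square per degree of freedom of inferred fragments, carried different labels: pacSC replicate 1 and elST replicate 3, at 1.58, which is above the value of 1 that sampling noise alone would give. All 18 libraries were kept, and values without the 5 libraries that stood apart are given for the results by type, the correlations and the lists.

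Pvt1 was detected in every library, with a range of 0.264 to 20.8 FPKM. In priSG-A it stood at 1.17, 0.820 and 2.41 FPKM in replicates 1, 2 and 3, and in priSG-B at 0.761, 0.518 and 0.586 FPKM. The priSG-A libraries, all high-rRNA, lay above the priSG-B libraries, all low-rRNA, so type and library make cannot be told apart in this pair. The plpSC replicates held 0.490, 0.443 and 8.41 FPKM, and the third was thus far above the other two. The pacSC replicates held 6.36, 7.22 and 5.72 FPKM, and all of these lay above all priSG-A and priSG-B libraries. The rST replicates held 0.264, 20.8 and 10.9 FPKM, while the elST replicates held 0.433, 10.7 and 7.43 FPKM. The highest and the lowest library of the whole study both carried the rST label, a 78.7-fold span as deposited and 21.2-fold when the upper quartile of the libraries was made equal. In rST and elST replicate 1 stood below all priSG-A and priSG-B libraries.

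**Figure D1:**
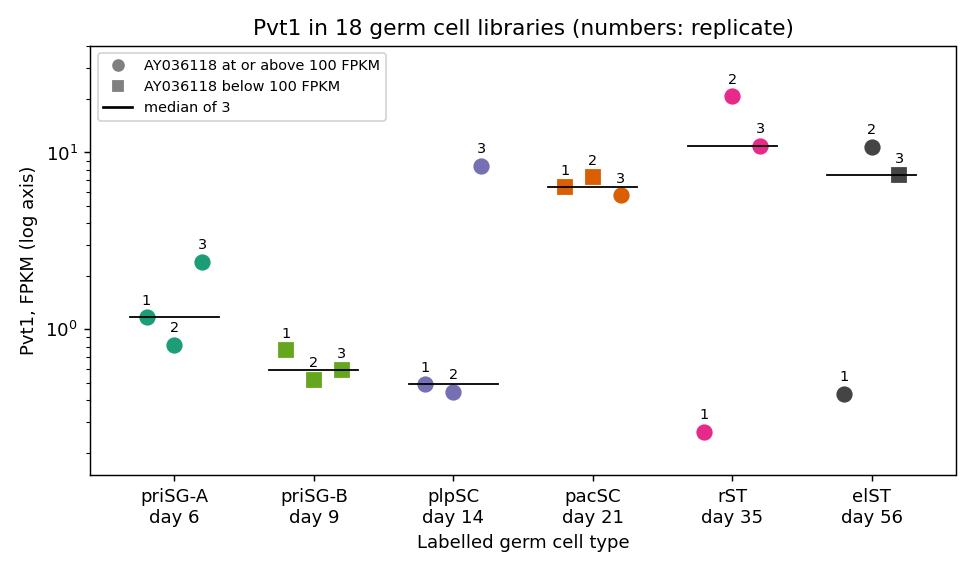
Pvt1 in FPKM on a log axis for each library, by labelled type in order of age, with the median of 3 as a line and squares for the low-rRNA libraries. The pacSC libraries sit together between 5.72 and 7.22 FPKM, while rST runs from 0.264 to 20.8 FPKM.

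By mean and SD (n = 3 each), Pvt1 averaged 1.47 ± 0.838 FPKM in priSG-A, 0.622 ± 0.125 in priSG-B, 3.12 ± 4.59 in plpSC, 6.43 ± 0.757 in pacSC, 10.6 ± 10.3 in rST and 6.20 ± 5.27 in elST. The order of the means from low to high was priSG-B, priSG-A, plpSC, elST, pacSC and rST. Of the 5 neighbouring pairs in that order, priSG-A against priSG-B was the sole pair whose ranges did not overlap. The means of plpSC, rST and elST were smaller than or close to their own SD. Without the library that stood apart, the means were 0.995 in priSG-A, 0.467 in plpSC, 6.79 in pacSC, 15.8 in rST and 9.09 FPKM in elST (n = 2 each, where the elST pair did not agree either). plpSC was then below priSG-B, and every library of pacSC, rST and elST was above every library of priSG-A, priSG-B and plpSC. Those libraries were set aside for their profiles over all loci, of which Pvt1 is 1.

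Within types Pvt1 varied more than most loci. On the log2(FPKM + 1) scale its SD within types was 1.29, against a median of 0.68 over the 4117 loci that reached 1 FPKM in 3 or more libraries (called kept loci), and 19.9% of these loci had a larger one. Differences between the type means made up 37.9% of its spread over the libraries, against a median of 43.7% over the kept loci. Without the 5 libraries that stood apart the SD within types was 0.29, against a median of 0.27, and 46.0% of the loci had a larger one, while the type means made up 97.7% of the spread, against a median of 93.3%. The size of the Pvt1 difference also depends on how libraries are scaled. The upper quartile of the kept loci was 5.77 to 7.21 FPKM in the 8 libraries with the highest Pvt1 and 1.38 to 1.68 FPKM in the 9 with the lowest. When this quartile was made equal, the means were 2.62 FPKM in priSG-A, 1.63 in priSG-B, 2.20 in plpSC, 3.87 in pacSC, 6.89 in rST and 3.90 in elST. The order then changed, with priSG-A above plpSC and elST just above pacSC. These scaled means, with the 5 libraries left out, were 2.45 FPKM in priSG-A, 1.63 in priSG-B, 1.09 in plpSC, 4.32 in pacSC, 10.02 in rST and 5.36 in elST.

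A rank within a library does not depend on such scaling, but it does depend on which loci are ranked. Of all loci 2491 to 2866 reached 1 FPKM in the 8 libraries with the highest Pvt1, and 1342 to 1695 in the 9 with the lowest. With fewer loci at that level, the same FPKM takes a higher rank in the 9. Among the kept loci Pvt1 stood at the 71.1st to 90.2nd percentile in the 8 libraries with the highest Pvt1, at the 70.0th in priSG-A replicate 3, and at the 42.2nd to 67.8th in the other 9. Its highest rank was in rST replicate 2 and its lowest in rST replicate 1. If all its reads lay on the upstream transcript shown above (1342 bases), the FPKM would correspond to about 207 to 1152 fragments in the 8 libraries, 127 in priSG-A replicate 3 and 11 to 61 in the other 9. On the longest transcript (3319 bases) the same FPKM would correspond to 565 to 3161, 349 and 31 to 171 fragments. The low levels thus rest on comparatively few fragments. The fewest are in rST replicate 1, at 11 or 31 by the transcript assumed.

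The spermatid index orders these libraries by a measured level and not by label. As the sole spermatid marker read, it leaves their cell content unchecked by any other. It is 1700027A15Rik (chr1:72984844-73025507, plus strand), an antisense gene that shares 40 of its 1396 exon bases with Tnp1 on the minus strand. Reads on the shared bases cannot be told from those of Tnp1. The index is listed at 0 in priSG-A replicate 2, plpSC replicates 1 and 2 and rST replicate 1, and it stood below 1 FPKM in priSG-A replicate 1, all priSG-B libraries and elST replicate 1. In these 9 libraries Pvt1 ranged from 0.264 to 1.17 FPKM. In priSG-A replicate 3 the index stood at 11.8 FPKM beside 2.41 FPKM of Pvt1, which is between the other libraries on both measures. The rST and elST libraries numbered 1 thus held the index at 0 and 0.570 FPKM, far below the other libraries with those labels, and they were low in Pvt1 too.

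Libraries with the index above 50 FPKM fell into separate sets. In pacSC replicates 1 and 2 and elST replicate 3 the index stood at 75.8, 84.9 and 73.0 FPKM, and Pvt1 at 6.36, 7.22 and 7.43 FPKM. In plpSC replicate 3, pacSC replicate 3, rST replicates 2 and 3 and elST replicate 2 the index stood at 874, 1195, 4539, 3175 and 875 FPKM, and Pvt1 at 8.41, 5.72, 20.8, 10.9 and 10.7 FPKM. The index thus exceeded Pvt1 by 9.83 to 11.9 times in the first set and by 81.4 to 292 times in the second. All libraries of the first set are low-rRNA and all of the second high-rRNA, so library make and cell content cannot be told apart between them. Pvt1 in pacSC replicate 3, a library with the index at 1195 FPKM, was below Pvt1 in all 3 libraries of the first set. Pvt1 was therefore several FPKM in libraries where the index was moderate, and the ranges of Pvt1 in both sets overlapped although those of the index did not. In bulk libraries, more cells that express Pvt1 and more Pvt1 RNA per cell cannot be told apart.

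**Figure D2:**
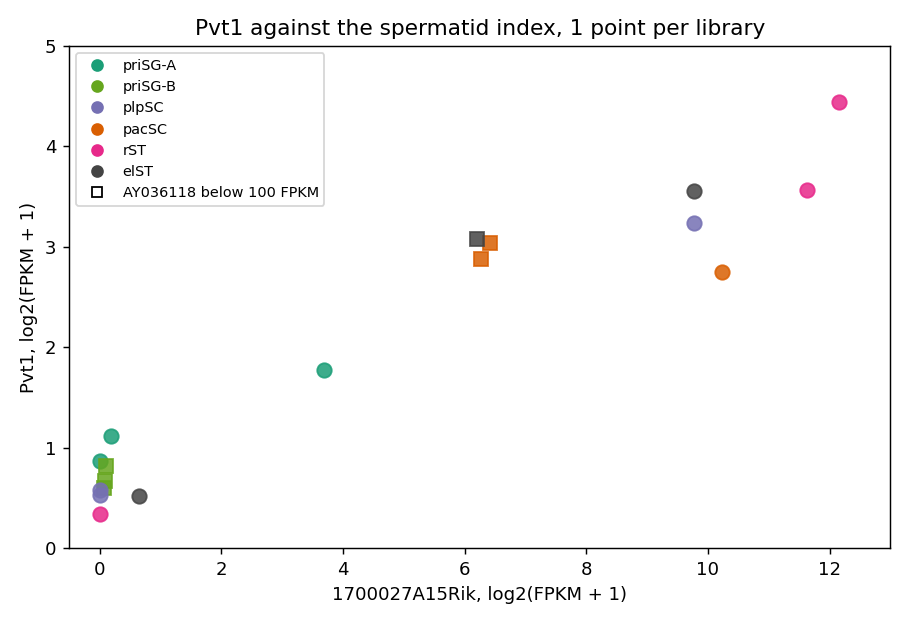
Pvt1 against 1700027A15Rik on log2(FPKM + 1) axes, 1 point per library, coloured by labelled type, with squares for low-rRNA libraries. The 9 libraries with the index below 1 FPKM lie at the lower left, and the squares with the index at 73.0 to 84.9 FPKM are level with several libraries whose index is 874 FPKM or more.

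The libraries fall into separate sets, so a correlation over all of them is given as a measure of likeness only, with no p. Pearson's r with the index on the log2(FPKM + 1) scale was 0.96 and Spearman's rho 0.87 (n = 18). Without rST replicates 2 and 3, the libraries farthest from the median of the index, r was 0.95, and without the 5 libraries that stood apart it was 0.98. Within the 9 libraries with the index below 1 FPKM, r was -0.014 and rho 0.26. The index is at or near 0 there, and Pvt1 still varied from 0.264 to 1.17 FPKM. The imprinted transcripts H19 and Meg3 were taken as a sign of other cells of the testis. Between libraries with the index above 50 FPKM and those with it below 1 FPKM, H19 moved opposite to Pvt1, and Meg3 did so in part. H19 ranged from 0.286 to 0.810 FPKM in the 8 libraries with the index above 50 FPKM and from 6.44 to 234 FPKM in the 9 with it below 1 FPKM. Meg3 ranged from 0.389 to 3.25 FPKM in the first and from 1.85 to 18.9 FPKM in the second, so its ranges overlapped. Within the first it was higher in the 5 libraries with the index at 874 FPKM or more (0.947 to 3.25 FPKM) than in the other 3 (0.389 to 0.877 FPKM). Those 5 are high-rRNA and the other 3 low-rRNA libraries. Within the 9 libraries with the index below 1 FPKM, H19 instead ran with Pvt1 at both ends. It was highest in priSG-A replicate 1 (234 FPKM, Pvt1 at 1.17 FPKM), followed by priSG-A replicate 2 (82.4 and 0.820 FPKM). Its lowest value was in rST replicate 1 (6.44 FPKM, Pvt1 at 0.264 FPKM). Meg3 was also highest in priSG-A replicate 1 but lowest in priSG-B replicate 3 (1.85 FPKM). The part of H19 and Meg3 in the Pvt1 levels was not tested.

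The loci most like Pvt1 over the 18 libraries were spread over many chromosomes. The closest by Pearson's r was the lincRNA 5730403I07Rik (chr9:77366412-77399418), with r of 0.99 and a range of 0.0676 to 4.12 FPKM. It was followed by the lincRNAs Gm39164, Gm35550, Gm31447, 1700081B01Rik, 4933406K04Rik and Gm34794, with r of 0.98 each. The processed transcript 4930448E22Rik, Gm15802 and the lincRNA 1700092C17Rik completed the 10, also with r of 0.98. Gm15802, annotated as antisense, overlaps the span of Igsf11 on the same strand without sharing exon bases. Its reads in the overlap cannot be told from unspliced Igsf11 RNA. Like Pvt1, all 10 were highest in rST replicate 2. Gm39164 reached 188 FPKM there and Gm31447 104 FPKM, against 4.12 FPKM for 5730403I07Rik. Their exons cover 265, 384 and 2033 bases, and the inferred fragment length in that library was 210 bases. For loci near the fragment length FPKM depends strongly on the length correction, so these levels cannot be compared between loci. Gm34794 (chr15:52751427-52786267) was the sole member of the 10 on the chromosome of Pvt1, outside the window of 1 Mb around it.

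The likeness is shared by many loci. An r above 0.9 was found for 784 of 4116 loci and the median over all was 0.68. The index ranked 80th. None of the 10 was among the 10 nearest by Spearman's rho, and 1 was among the 10 nearest with a pseudocount of 0.1, so the names depend on the measure. With the same 5 libraries left out 1080 of 4116 loci had an r above 0.9, 6 of the 10 were again among the 10 nearest, and r with Pvt1 was 0.98 to 0.99 for all 10. The levels most opposite to Pvt1 were those of Gm49204, Gm45779, Gm12758, 4632427E13Rik and Gm15020, with r of -0.97 each. Gm12758, the most abundant of these by its highest value, ranged from 0.547 FPKM to 12.9 FPKM and shares 2696 exon bases with 4931406P16Rik on the other strand, so their reads cannot be told apart. Gm49204 lies within Exoc5 on the same strand without sharing exon bases, and its reads cannot be told from unspliced Exoc5 RNA. Gm45779 shares 56 exon bases with Eps15l1, and Gm15020 shares 107 with the pseudogene Gm6207, each on the same strand. Reads on those bases cannot be told apart either.

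**Figure D3:**
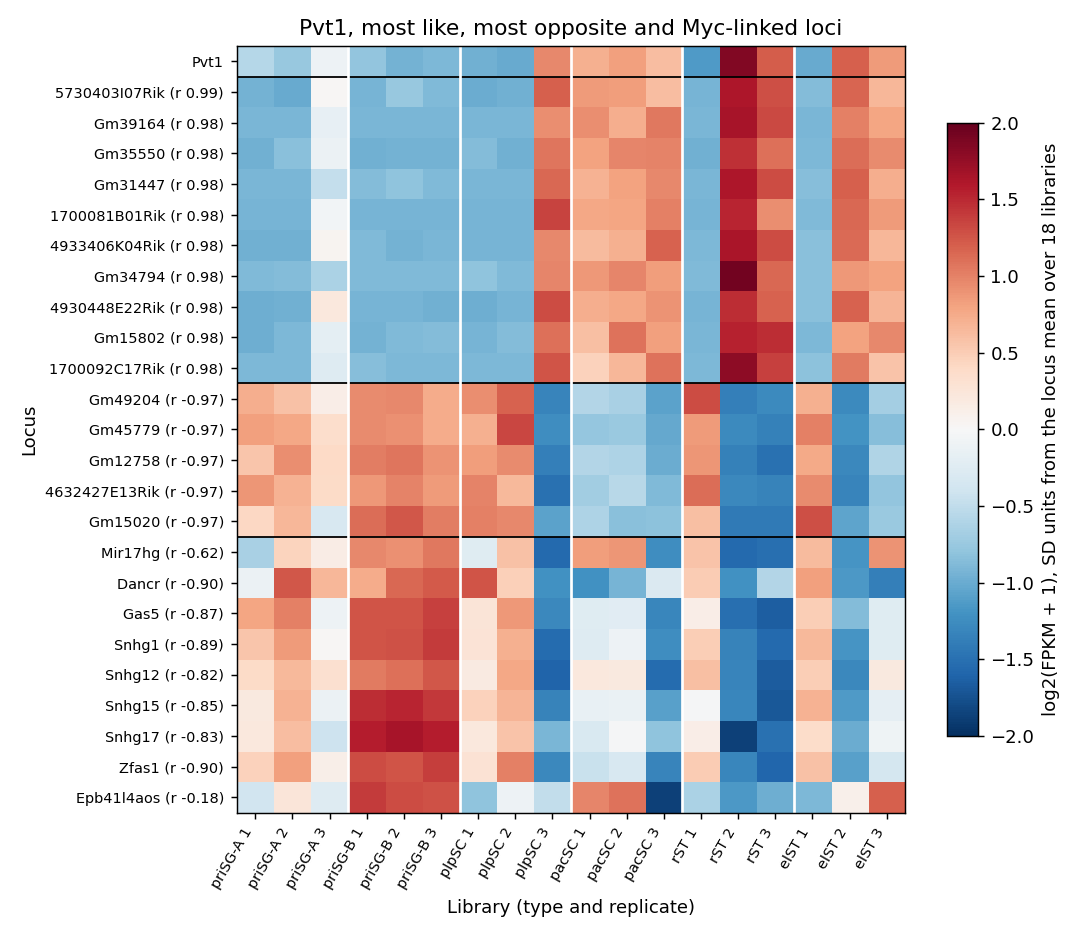
Levels of Pvt1, the 10 most like and 5 most opposite loci and 9 Myc-linked noncoding loci in the 18 libraries, as SD units from each locus's mean on the log2(FPKM + 1) scale, with Pearson's r against Pvt1 beside the name. Rows of the most like loci were chosen for their r, so their resemblance (r of 0.98 to 0.99) is a description.

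The neighbours of Pvt1 were taken by position, whatever their levels. The table holds 10 other loci within 1 Mb of either end, and 2 of them passed the filter on low values. The other 8, among them Gm37947, which lies between D030024E09Rik and Myc and 54683 bases before Pvt1, had a highest value of 1.55 FPKM in any library. D030024E09Rik was at or below 0.608 FPKM and Gm29904, the one that reached 1.55 FPKM, did so in plpSC replicate 3 alone. Gm41333, the nearest locus after Pvt1 at 189878 bases, stood at or below 0.180 FPKM. Noncoding RNA from the nearest neighbours on both sides was thus low in every library, those with the most Pvt1 included.

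The 2 neighbours that passed the filter are the lincRNAs Gm30159 (chr15:63067008-63143105, minus strand) and Gm41335 (chr15:63176838-63718289, minus strand), which begin 688911 and 798741 bases after Pvt1. The priSG-A replicates held 0.0295, 0 and 0.814 FPKM of Gm30159, the priSG-B replicates 0, 0 and 0.00716 FPKM, and the plpSC replicates 0, 0 and 10.8 FPKM. The pacSC replicates held 4.11, 5.54 and 13.1 FPKM, the rST replicates 0, 16.2 and 19.4 FPKM, and the elST replicates 0, 12.1 and 4.52 FPKM. Gm30159 was thus high in the same 8 libraries as Pvt1 and, unlike Pvt1, at or near 0 in the other libraries apart from priSG-A replicate 3. Its r with Pvt1 was 0.96 (n = 18, a description).

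Gm41335 differed in which of these libraries were highest. In priSG-A replicate 3 it stood at 2.36 FPKM and in plpSC replicate 3 at 1.41 FPKM, while the remaining priSG-A, priSG-B and plpSC libraries were at or below 0.0262 FPKM. The pacSC replicates held 6.90, 7.26 and 1.42 FPKM, the rST replicates 0.0980, 1.91 and 1.56 FPKM, and the elST replicates 0.0692, 1.27 and 7.92 FPKM. Gm41335 was thus about level with Pvt1 in pacSC replicates 1 and 2 and elST replicate 3, at 1.00 to 1.08 times its FPKM, and at 0.0917 to 0.248 times in the 5 libraries with the index at 874 FPKM or more. The first are low-rRNA and the others high-rRNA libraries, so library make and cell content cannot be told apart between these sets. In priSG-A replicate 3, a high-rRNA library with the index at 11.8 FPKM, Gm41335 stood at 0.977 times Pvt1. The part of library make was not tested. Gm41335 shares 472 exon bases with 4930449C09Rik on the other strand.

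**Figure D4:**
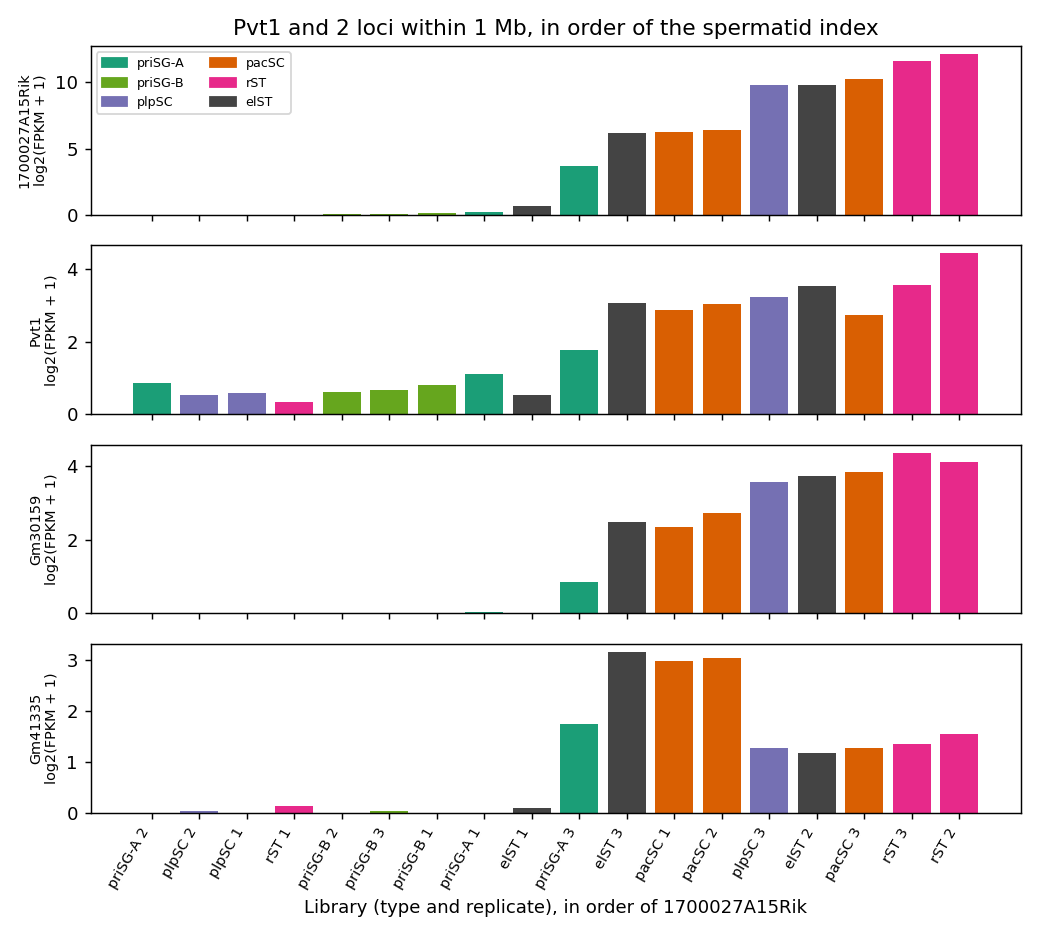
The index 1700027A15Rik, Pvt1, Gm30159 and Gm41335 as log2(FPKM + 1), 1 bar per library in order of the index, coloured by labelled type. Pvt1 is above 0 in all libraries, Gm30159 follows the index, and Gm41335 is highest (6.90 to 7.92 FPKM) where the index is 73.0 to 84.9 FPKM.

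Differences by label were tested on loci chosen by position or list. A moderated F test in limma over the 6 types, on log2(FPKM + 1) of all 18 libraries, called 28 of 4117 loci at a Benjamini-Hochberg adjusted p under 0.05, or 0.68%, and 586 had an unadjusted p under 0.05. Neither neighbour passed (limma adjusted p = 0.294 for both). Without the 5 libraries that stood apart both passed (limma adjusted p = 1.59e-06 for Gm30159 and 0.00024 for Gm41335), as did 3923 of all 4117 loci, or 95.3%. Those libraries were set aside for their distance from the others of their type, so passing there says little of any single locus or list. A p that misses the threshold does not show that the types were alike, since libraries of 1 label lie far apart.

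Noncoding loci linked to p53 or Myc were read beside Pvt1 as lists chosen with earlier results known. Of the 4 p53-linked loci other than Pvt1, Trp53cor1 (lincRNA-p21) did not pass the filter on low values, with a highest value of 0.404 FPKM. Neat1, the scaffold RNA of nuclear paraspeckles, ranged from 2.28 to 11.3 FPKM with a median of 6.01 FPKM. Tug1, needed for male fertility in mice, ranged from 13.1 to 37.1 FPKM, and Meg3, a maternally expressed imprinted RNA, from 0.389 to 18.9 FPKM. Each of the 3 was above 0 in every library, and none passed the F test (0 of 3, with a smallest limma adjusted p of 0.450, where 0.68% of all loci passed). Without the 5 libraries that stood apart 2 of the 3 passed, all but Neat1 (limma adjusted p = 0.122), where 95.3% of all loci did. Their r with Pvt1 lay between -0.64 and -0.51. The annotation places exons of Morc2a on the other strand of Tug1 and of Gm26906 on that of Meg3, so some of their reads cannot be told apart.

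The 9 Myc-linked loci are a chosen list of host genes and other noncoding RNAs, and cell growth was not measured here. Several of them host small nucleolar RNAs used in ribosome making, and Mir17hg, the host of the miR-17 cluster, is a known Myc target. All 9 passed the filter and all 9 had their highest type mean in priSG-B. This is the type with the lowest Pvt1 mean, though plpSC had the lowest median (0.490 FPKM). It is also the sole type made up of low-rRNA libraries alone, so type and library make cannot be told apart here. Over all kept loci 13.5% had their highest mean there. The priSG-B replicates held 64.0, 59.8 and 70.4 FPKM of Zfas1, a host gene of small nucleolar RNAs, the pacSC replicates 5.82, 7.05 and 1.19 FPKM, and the rST replicates 22.1, 1.23 and 0.566 FPKM. In rST replicates 2 and 3, which had the most Pvt1 of all libraries, Zfas1 was thus among its lowest values. The pacSC replicates held 3.93, 4.06 and 0.265 FPKM of Mir17hg, and the rST replicates 3.13, 0.0307 and 0.0610 FPKM.

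None of the 9 passed the F test over the 6 types (0 of 9, smallest limma adjusted p = 0.294, against 0.68% of all loci). Without the 5 libraries that stood apart all 9 passed (largest limma adjusted p = 0.0135), where 95.3% of all loci did, and all 9 still had their highest mean in priSG-B. All 9 had an r below 0 with Pvt1, with a median of -0.85 and a range of -0.90 to -0.18, where 34.8% of all kept loci were below 0. Epb41l4aos was the member at -0.18, and it stood at 18.6, 20.3 and 0.824 FPKM in pacSC. In pacSC replicates 1 and 2 and elST replicate 3, where Pvt1 was 6.36 to 7.43 FPKM, Mir17hg and Epb41l4aos were thus high, at 3.93 to 4.10 and 18.6 to 22.3 FPKM. These are the low-rRNA libraries among those with high Pvt1, and the part of library make in this was not tested.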

How the data were processed

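Germ cells of 6 labelled types were profiled by RNA sequencing in 18 libraries made with a TruSeq kit, per the labels' protocols. The authors deposited 1 table of FPKM values for 13218 loci, and HISAT2, StringTie and mm10 are named in the submitters' processing notes. No source used here gives versions, the annotation, the strand setting or filters. Of the rows, 13082 had the identifier, start and end of a GENCODE M21 gene, which was used for exons and neighbours.

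Values were used as log2(FPKM + 1), which understates changes of low loci, on loci that reached 1 FPKM in 3 or more libraries. Depth was inferred from FPKM steps in single-exon loci, where 97.5 to 98.9% of low values came out whole within 0.1. The F test used limma 3.58.1 in R 4.3.3 with trend and robust estimation, 1 coefficient per type, no block, and was checked on simulated data. That simulation drew noise independently for each locus and library. It therefore does not cover libraries that stand apart over many loci at once, as in these data. Count tests were not used, since the values are FPKM. Tables and figures used Python 3.11.15, numpy 2.4.6, pandas 2.3.3 and matplotlib 3.10.9.

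Named are Pvt1 and the index, all loci within 1 Mb, the 10 loci with the highest and 5 with the lowest Pearson's r, and list members. Gene, lists and tests were chosen with earlier results of these data known. Tsx, a marker named in the plan for pachytene spermatocytes, was not analysed here. The alternatives were other scalings, pseudocounts and filters, the rRNA set or the replicate number as a term, and leaving out libraries.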

Additional observations from a re-analysis of the deposited data

How the results depend on the processing

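Leaving out 1 library of the type in turn gave Pvt1 means of 0.995 to 1.79 FPKM in priSG-A, 0.552 to 0.674 in priSG-B, 0.467 to 4.45 in plpSC, 6.04 to 6.79 in pacSC, 5.56 to 15.8 in rST and 3.93 to 9.09 in elST. With the upper quartile made equal the means moved by more than 1 SD in priSG-A (2.62 FPKM), priSG-B (1.63) and pacSC (3.87), and with quantile normalization likewise (2.38, 1.64 and 3.89 FPKM). In plpSC, rST and elST they stayed within 1 SD. Pearson's r with the index was 0.96 to 0.97 when 1 library was left out, 0.96 with a pseudocount of 0.1, 0.88 with equal upper quartiles, 0.97 within the 12 high-rRNA libraries and close to 1 (0.997) within the 6 low-rRNA libraries, which hold 2 separate sets. In the 9 libraries with the index below 1 FPKM, chosen after seeing the data, it was -0.014. The F test called 28 loci, and 1 with a pseudocount of 0.1, 9 with a filter of 5 FPKM, 90 of 12224 with no filter, 148 with the rRNA set as a term, 43 after quantile normalization and 23 without trend and robust estimation. Leaving out 1 library gave 9 to 81 loci, the lowest (9, 10 and 12) without priSG-B replicate 3, 1 or 2, and the highest without rST replicate 1. Without the 5 libraries that stood apart, a choice made from the profiles themselves, 3923 of 4117 were called, among them both neighbours, all 9 Myc-linked loci and 2 of the 3 p53-linked loci. In the other alternatives neither neighbour and no list member passed, with limma adjusted p from 0.0668 to 0.435 for Gm30159 when 1 library was left out. The replicate number as a block gave 30 loci, with 1584 at an unadjusted p under 0.05 against 586 without it. Libraries with the same number in different types deviated from their type means with r from -0.83 to 0.87 (mean 0.17, 45 pairs), and those with different numbers with r from -0.93 to 0.89 (mean -0.097, 90 pairs). Not every same-numbered pair deviated together, so the numbers were not taken as pairs. The causes of these changes were not tested.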
